A study of Arabidopsis thaliana with 8 samples.

Results

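Jasmonate synthesis and turnover was followed through 10 genes taken by locus identifier, out of 18333 genes listed in any of the deposited tables. They encode 3 lipoxygenases (LOX2, LOX3 and LOX4), allene oxide synthase (AOS), the allene oxide cyclases AOC1 and AOC2, the reductase OPR3, the conjugating enzyme JAR1, and the hydroxylases CYP94B3 and CYP94C1. The tables held 9 of these genes for every genotype, whereas CYP94B3 was listed only for the sid2 line and WT. Rosettes of untreated Arabidopsis thaliana (ecotype Col-0) aged 28 days gave the RNA, sequenced as 2 libraries for each of 4 genotypes.

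The eds1 line was the eds1 pbl19 double mutant carrying pPBL19:PBL19C3A-GFP-HA, a tagged form of the receptor-like cytoplasmic kinase PBL19 under the PBL19 promoter, and its labels give a phenotype like WT. EDS1 is a lipase-like protein on which immune signalling by many intracellular receptors depends. The sid2 line carried this construct in the sid2 pbl19 background, and constitutive immunity is its labelled phenotype. SID2 is the isochorismate synthase ICS1, needed for most salicylic acid of immune leaves. The PBL19C3A line carried the construct in pbl19 alone and is also labelled with constitutive immunity. WT carried neither mutation nor transgene. All 3 transgenic lines therefore shared the pbl19 mutation and the construct, and the labels do not say whether they share an insertion. They also do not say that the 2 libraries of a genotype came from separate plants, and the series describes one biological replicate, so the p-values measure only the spread between these libraries, which may be technical.

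Jasmonate is made from linolenic acid. In the plastid, lipoxygenases oxygenate the fatty acid, AOS turns the product into an unstable allene oxide, and the cyclases close it to the precursor OPDA. OPR3 reduces OPDA in the peroxisome, where beta-oxidation then shortens the chain. JAR1 joins jasmonate to isoleucine, the active hormone is perceived by COI1 with JAZ repressors, and CYP94 enzymes oxidise it to less active forms. In leaves the pathway is best known from wounding and attack by chewing insects, and it and salicylic acid signalling are known to oppose each other.

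Total counts per library lay between 37373977 and 51202472. In the transgenic lines, reads of PBL19 (AT5G47070) from the transgene are not told apart from any of the native gene, while WT carries no transgene. PBL19 stood at 51.5 ± 19.2 FPKM (fragments scaled to gene length and library size; mean ± SD, n = 2 libraries here and below) in the eds1 line, 791 ± 233 in the sid2 line, 1917 ± 396 in the PBL19C3A line and 8.90 ± 2.13 in WT. EDS1 (AT3G48090) had 3.21 to 4.99 FPKM in the eds1 line and 8.03 to 13.4 in WT, and ICS1 (AT1G74710) 4.45 to 5.02 in the sid2 line and 5.81 to 8.78 in WT, so both mutated genes still had reads. Differences between the transgenic lines in any member cannot be told apart from differences in the level of the transgene. Markers of the green leaf varied too: the summed level of 4 mesophyll genes was 31786 to 35808 FPKM in the eds1 line, 26944 to 27180 in the sid2 line, 21378 to 23477 in the PBL19C3A line and 34680 to 37426 in WT. None of 3 root hair markers was listed. Of 4 flower markers, SEP3 stood at 0.509 to 1.45 FPKM over the 8 libraries, and PI, listed only for the sid2 line and WT, at 1.86 and 2.11 FPKM in the sid2 line and 0.782 and 0.473 in WT.

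AOS and LOX2 were the members called in opposite directions. AOS was lower in the PBL19C3A line and, less far, in the sid2 line than in WT, and LOX2 was higher in both. Against WT, edgeR's quasi-likelihood test with Benjamini-Hochberg adjustment over all genes called 0 of 9 members in the eds1 line (background 0.16% of 17534 genes), 2 of 10 in the sid2 line (16.2% of 17991) and 2 of 9 in the PBL19C3A line (36.2% of 18048). The threshold was an adjusted p of 0.05. Of the members in the eds1 line against WT, 0 reached an unadjusted p of 0.05, and DESeq2 also called 0. Between the transgenic lines, the calls were 1 of 9 in the sid2 line against the PBL19C3A line (background 2.63%), 3 of 9 in the eds1 line against the PBL19C3A line (28.2%) and 1 of 9 in the eds1 line against the sid2 line (9.4%). The median log2 change over the members with a value was 0.49 for the eds1 line, 1.02 for the sid2 line and 0.31 for the PBL19C3A line against WT, beside 0.0059, 0.0049 and 0.0194 over all genes. The median of the sid2 line is over 10 members, CYP94B3 among them, and the others are over 9. With only genes of at least 5 CPM (counts relative to library size) on average, which leaves CYP94B3 out, it was 0.87 for the sid2 line. These 3 comparisons share the WT libraries. The medians of the members moved with single libraries: that of the eds1 line was 0.15 without eds1 library 2 and 0.21 without WT library 2, that of the sid2 line 0.16 without sid2 library 1, and that of the PBL19C3A line 0.17 without PBL19C3A library 1. By direction, LOX2 was the 1 member higher and AOS the 1 lower in the PBL19C3A line against WT (21.4% of all genes higher, 14.9% lower) and likewise for the sid2 line (12.1% higher, 4.05% lower). For the eds1 line against WT 0.0342% of genes were higher and 0.125% lower. Against the PBL19C3A line, AOS was the member higher in the sid2 line (0.651% higher, 1.98% lower) and the eds1 line (12% higher, 16.2% lower, with LOX2 and JAR1 lower). It was also the member higher when the eds1 line was set against the sid2 line (2.39% higher, 7.02% lower). Left-out libraries moved these counts: the 2 members of the sid2 line against WT became 0 without sid2 library 1, 1 without any PBL19C3A or WT library and 5 without sid2 library 2. The 3 members of the eds1 line against the PBL19C3A line became 1 without eds1 library 1 or either PBL19C3A library. The 1 member of the sid2 line against the PBL19C3A line was lost without either PBL19C3A library, and that of the eds1 line against the sid2 line without eds1 library 2 or sid2 library 1, while 2 were called without sid2 library 2.

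**Figure D1:**
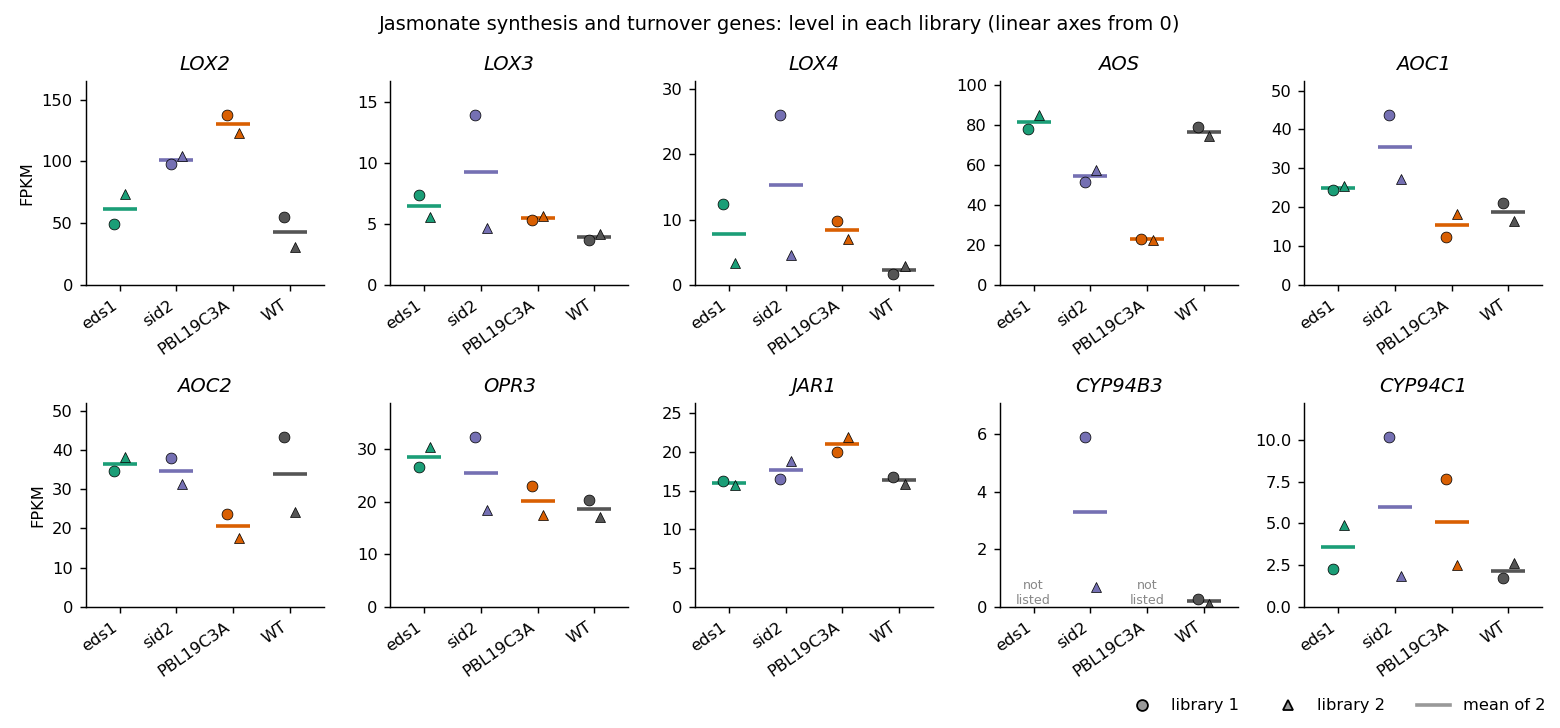
Level of each member in FPKM (linear axes starting at 0) in library 1 (circles) and library 2 (triangles) of the eds1 line, the sid2 line, the PBL19C3A line and WT, with bars at the mean of 2. AOS lies at 22.8 and 22.6 in the PBL19C3A line and at 78.9 and 74.5 in WT, while LOX3, LOX4, CYP94B3 and CYP94C1 have 1 high library in the sid2 line.

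The stretches of 250 bases upstream of the annotated starts of 4 members are shown because LOX2 and AOS were called in opposite directions and because the related genes LOX3 and LOX4 had their highest level in the same library. They are RefSeq sequence of the TAIR10.1 assembly, read 5′ to 3′ on the strand of each gene, at chr3:16524995-16525244 (LOX2, plus strand), chr5:17099596-17099845 (AOS, minus strand), chr1:5977073-5977322 (LOX3, plus strand) and chr1:27308263-27308512 (LOX4, plus strand). Capitals mark matches on either strand to the G-box CACGTG and its relative CACATG, elements that MYC factors of the jasmonate pathway can bind, and to TTGACC or TTGACT, forms of the W-box that WRKY factors can bind.
LOX2: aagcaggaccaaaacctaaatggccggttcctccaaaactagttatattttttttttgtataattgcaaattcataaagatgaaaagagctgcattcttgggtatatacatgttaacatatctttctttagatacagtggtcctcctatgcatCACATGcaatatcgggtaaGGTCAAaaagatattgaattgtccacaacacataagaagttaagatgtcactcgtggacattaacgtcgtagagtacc
AOS: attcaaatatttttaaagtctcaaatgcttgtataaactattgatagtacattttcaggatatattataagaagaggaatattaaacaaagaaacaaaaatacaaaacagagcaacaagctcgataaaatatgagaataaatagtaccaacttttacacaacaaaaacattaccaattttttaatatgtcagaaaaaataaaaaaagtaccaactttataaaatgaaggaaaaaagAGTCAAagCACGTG
LOX3: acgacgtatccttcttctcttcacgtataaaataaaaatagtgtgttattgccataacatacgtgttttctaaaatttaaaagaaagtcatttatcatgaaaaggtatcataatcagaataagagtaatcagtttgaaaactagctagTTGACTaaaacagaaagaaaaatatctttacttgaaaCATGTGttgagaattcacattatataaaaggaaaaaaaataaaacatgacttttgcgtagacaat
LOX4: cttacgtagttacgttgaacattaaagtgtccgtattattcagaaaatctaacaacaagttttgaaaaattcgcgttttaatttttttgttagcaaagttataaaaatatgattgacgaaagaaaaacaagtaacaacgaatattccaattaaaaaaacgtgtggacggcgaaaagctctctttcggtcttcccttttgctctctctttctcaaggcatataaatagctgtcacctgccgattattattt
LOX2 held CACATG at bases 97 to 92 and TTGACC, on the other strand, at bases 78 to 73 before its start. AOS held the G-box in the last 6 bases before its start and TTGACT, on the other strand, at bases 14 to 9. LOX3 held TTGACT at bases 102 to 97 and CACATG, on the other strand, at bases 65 to 60, and none of these letters was found in the window of LOX4. Over the windows of 27443 genes, CACGTG was present in 6.49% and in 1 of the 10 members (AOS), CACATG in 11.1% and in 4 members (LOX2, LOX3, JAR1 and CYP94C1), TTGACC in 12.2% and in 1 member (LOX2), and TTGACT in 19.1% and in 2 members (LOX3 and AOS). The ethylene response element GCCGCC was present in 1.87% of the windows and in 0 of the 10 members. A match is a description of these letters and not of a bound site.

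LOX2 (AT3G45140, chromosome 3) encodes the plastid lipoxygenase that feeds most of the jasmonate of wounded leaves. Its level was 49.1 and 73.3 FPKM in the libraries of the eds1 line, 98.2 and 104 in the sid2 line, 138 and 123 in the PBL19C3A line, and 54.6 and 30.4 in WT. All libraries of the sid2 and PBL19C3A lines lay above all those of the eds1 line and WT, and the eds1 line overlapped WT. LOX2 rose by 1.57 ± 0.30 on the log2 scale (log2 fold change ± SE) in the PBL19C3A line against WT, a 2.98-fold difference (edgeR quasi-likelihood test, adjusted p = 0.00636). It was also higher in the sid2 line than in WT, by 1.19 ± 0.30 (edgeR, adjusted p = 0.0349). It was lower in the eds1 line than in the PBL19C3A line, by -1.08 ± 0.30 (edgeR, adjusted p = 0.0314). The eds1 line differed from WT by 0.49 ± 0.29 and from the sid2 line by -0.70 ± 0.29, and the sid2 line from the PBL19C3A line by -0.38 ± 0.29 (edgeR, adjusted p = 1, 0.188 and 0.552). In the order PBL19C3A line, sid2 line, eds1 line and WT, no neighbouring pair was therefore called different. Among the alternative analyses counted here and below, that without a low-count filter repeats the main fit, since the filter removed no gene. The call of the PBL19C3A line against WT held in 16 of 16 alternative analyses, with adjusted p up to 0.0354. That of the sid2 line was lost in 6 of 16 (adjusted p up to 0.115 in edgeR), which were the fit of only these genotypes and those without either sid2 library, either PBL19C3A library or WT library 2, and that of the eds1 line against the PBL19C3A line in 3 of 16 (up to 0.126 in edgeR), without eds1 library 1 or either PBL19C3A library.

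LOX3 (AT1G17420) and LOX4 (AT1G72520), on chromosome 1, encode lipoxygenases that act together in male fertility and also contribute to leaf jasmonate. Their coding sequences are 79.5% identical and share no identical run of 50 bases. LOX3 stood at 7.35 and 5.55 FPKM in the eds1 line, 13.9 and 4.63 in the sid2 line, 5.27 and 5.63 in the PBL19C3A line, and 3.69 and 4.16 in WT. LOX4 stood at 12.4 and 3.31 FPKM in the eds1 line, 26.1 and 4.55 in the sid2 line, 9.85 and 7.04 in the PBL19C3A line, and 1.65 and 2.81 in WT. For both genes every library of the transgenic lines lay above both WT libraries, and sid2 library 1 was the highest of the 8. LOX4 differed from WT on the log2 scale by 1.76 ± 0.85 for the eds1 line, 2.72 ± 0.87 for the sid2 line and 1.88 ± 0.85 for the PBL19C3A line (edgeR, adjusted p = 1, 0.0763 and 0.126). The corresponding differences of LOX3 were 0.67 ± 0.44, 1.18 ± 0.44 and 0.43 ± 0.44 (edgeR, adjusted p = 1, 0.113 and 0.479), and no pair of genotypes was called different for either gene in this fit. Some alternatives did call a difference. LOX4 in the PBL19C3A line against WT passed with only the libraries of these genotypes (1.83, edgeR, adjusted p = 0.00614) and without either sid2 library (edgeR, adjusted p = 0.0485 and 0.0488). In the sid2 line against WT, LOX3 and LOX4 passed with DESeq2 (adjusted p = 0.0264 and 0.0426). LOX3 in the eds1 line against the sid2 line passed without sid2 library 2 (-1.09, edgeR, adjusted p = 0.0261). Without sid2 library 1 the difference of the sid2 line from WT was 0.18 for LOX3 and 0.97 for LOX4 (edgeR, adjusted p = 0.651 and 0.466). Without sid2 library 2 it was 1.76 and 3.48, and both passed the threshold (edgeR, adjusted p = 0.00356 and 0.0232).

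AOS (AT5G42650, chromosome 5) encodes the cytochrome P450 that commits the lipoxygenase product to jasmonate, and Arabidopsis has no second gene for it. Its level was 77.9 and 85.1 FPKM in the eds1 line, 51.6 and 57.6 in the sid2 line, 22.8 and 22.6 in the PBL19C3A line, and 78.9 and 74.5 in WT. The PBL19C3A line lay lowest, the sid2 line stood between it and the rest without overlap, and the eds1 line overlapped WT. AOS fell by 1.80 ± 0.11 on the log2 scale in the PBL19C3A line against WT (edgeR, adjusted p = 0.000101) and by 0.55 ± 0.11 in the sid2 line against WT (edgeR, adjusted p = 0.0158). Set against the PBL19C3A line, AOS was higher by 1.25 ± 0.11 for the sid2 line (edgeR, adjusted p = 0.00494) and by 1.85 ± 0.11 for the eds1 line (edgeR, adjusted p = 1e-04). The eds1 line also exceeded the sid2 line, by 0.60 ± 0.11 (edgeR, adjusted p = 0.0167), and differed from WT by 0.05 ± 0.11 (edgeR, adjusted p = 1). In the order eds1 line, WT, sid2 line and PBL19C3A line, only the pair of the eds1 line and WT was thus not called different. AOS varied little between libraries, with means of 81.5 ± 5.14, 54.6 ± 4.26, 22.7 ± 0.156 and 76.7 ± 3.10 FPKM in the eds1 line, the sid2 line, the PBL19C3A line and WT. Both calls in which the PBL19C3A line was set against WT or against the eds1 line held in 16 of 16 alternatives. The call between the sid2 and PBL19C3A lines was lost without either PBL19C3A library (edgeR, adjusted p up to 0.064), that of the sid2 line against WT without sid2 library 1 or WT library 1 (up to 0.113), and that of the eds1 line against the sid2 line without eds1 library 2, without sid2 library 1 and with only the libraries of these genotypes (up to 0.117).

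The order of the genotypes by AOS was also that of the marker sums at its low end. Against WT, the test called lower in the PBL19C3A line 4 of 4 mesophyll, 3 of 4 guard cell, 2 of 4 phloem and 2 of 4 epidermis markers, and in the sid2 line 3, 1, 1 and 1 of 4, with 1 phloem marker higher. Of all genes, 14.9% were lower in the PBL19C3A line, while 4.05% were lower and 12.1% higher in the sid2 line. The summed guard cell markers stood at 24.2 to 30.5 FPKM in the eds1 line, 18.8 to 20.1 in the sid2 line, 11.0 to 13.6 in the PBL19C3A line and 27.0 to 30.6 in WT. Fewer cells of a type and less RNA per cell cannot be told apart in whole rosettes, and the part of cell composition in the difference of AOS was not tested. LOX2 differed from WT in the opposite direction in both lines.

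**Figure D2:**
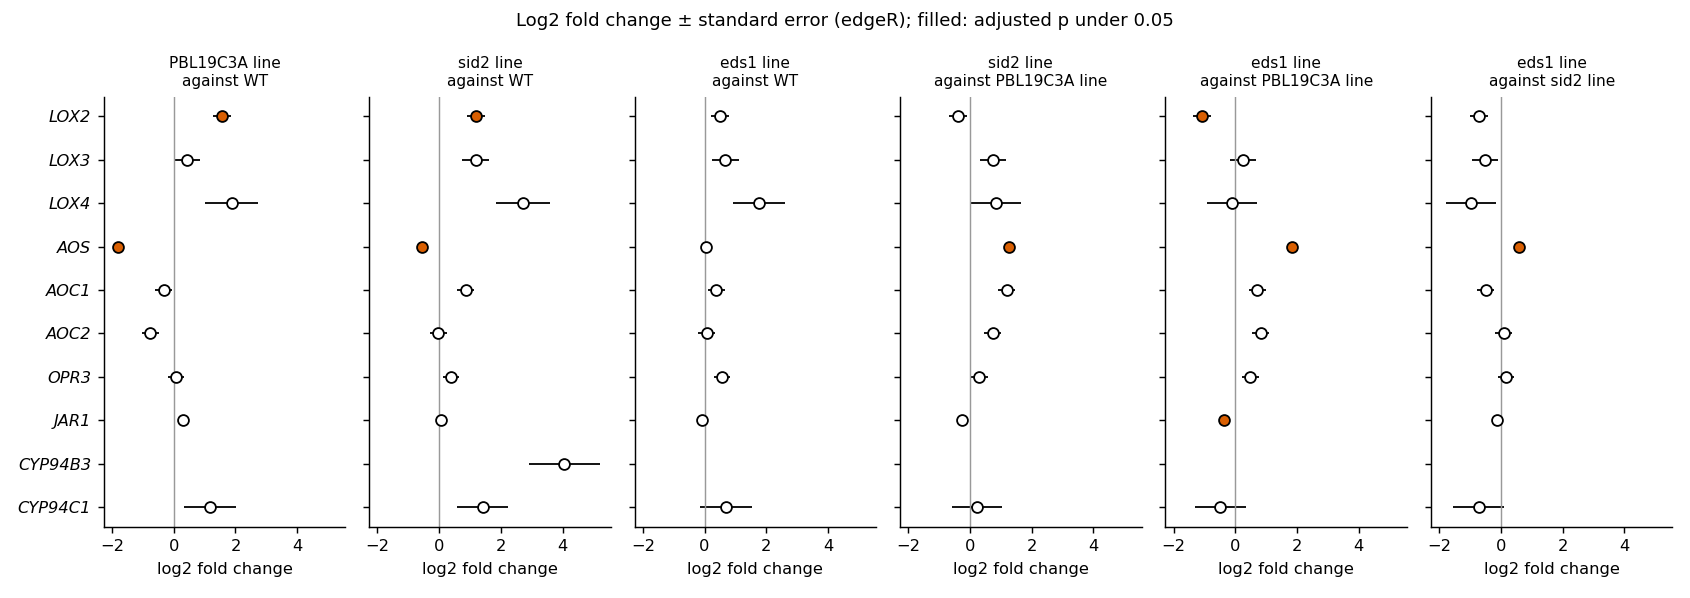
Log2 fold change of each member ± SE in the 6 comparisons (edgeR quasi-likelihood test), with filled points for an adjusted p under 0.05 and the vertical line at 0. The filled points are AOS in every comparison but that of the eds1 line with WT, LOX2 in 3 comparisons, and JAR1 in the eds1 line against the PBL19C3A line. CYP94B3 has a value in the sid2 line against WT alone.

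AOC1 (AT3G25760) and AOC2 (AT3G25770) encode plastid cyclases that form OPDA and are neighbours on chromosome 3, followed by AOC3 (AT3G25780). The coding sequences of AOC1 and AOC2 are 89.9% identical, with no identical run of 50 bases between them, and no source used here states how reads that match both were counted. Their upstream windows share the run of 19 bases tgtagtttagggaccggcc, shown because it is the longest stretch these windows have in common. It starts 117 bases before the start of AOC1 and 19 bases before that of AOC2. AOC1 stood at 24.4 and 25.4 FPKM in the eds1 line, 43.7 and 27.2 in the sid2 line, 12.4 and 18.2 in the PBL19C3A line, and 21.0 and 16.4 in WT. AOC2 stood at 34.5 and 38.2 FPKM in the eds1 line, 37.9 and 31.2 in the sid2 line, 23.6 and 17.5 in the PBL19C3A line, and 43.2 and 24.3 in WT. AOC1 was above both WT libraries in every library of the eds1 and sid2 lines, and the PBL19C3A line overlapped WT, whereas AOC2 was lowest in the PBL19C3A line, below both WT libraries. Neither passed the test in any comparison when all libraries were fitted with genotype alone. Nearest to the threshold were AOC2 in the eds1 line against the PBL19C3A line (0.83 ± 0.28, edgeR, adjusted p = 0.0611), AOC2 in the PBL19C3A line against WT (-0.76 ± 0.28, edgeR, adjusted p = 0.0668) and AOC1 in the sid2 line against WT (0.87 ± 0.27, edgeR, adjusted p = 0.0724). AOC1 in the sid2 line against the PBL19C3A line followed, at 1.19 ± 0.28 (edgeR, adjusted p = 0.0739). Each of these passed in some alternatives. AOC2 in the eds1 line against the PBL19C3A line passed with a replicate block (edgeR, adjusted p = 0.0262), with only these genotypes (edgeR, adjusted p = 0.0254), without either WT library (edgeR, adjusted p = 0.0185 and 0.0181) and with DESeq2 (adjusted p = 0.0131). AOC2 in the PBL19C3A line against WT passed with a replicate block (edgeR, adjusted p = 0.0369), without WT library 2 (edgeR, adjusted p = 0.0119) and with DESeq2 (adjusted p = 0.0217). AOC1 passed with DESeq2 in the sid2 line against WT, the sid2 line against the PBL19C3A line and the eds1 line against the PBL19C3A line (adjusted p = 0.0186, 0.00129 and 0.0438), and without sid2 library 2 in the sid2 line against WT (edgeR, adjusted p = 0.0363).

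AOC3 and AOC4, the other cyclase genes, were no members but are near copies, 81.2% and 70.3% identical to AOC1 in coding sequence. Of the windows of 50 coding bases, 3.35% of those of AOC1 and 0.14% of those of AOC2 occur unchanged in AOC3. How reads that match AOC3 and a member alike were counted is not stated either. AOC3 stood at 5.32 and 1.40 FPKM in the eds1 line, 12.5 and 4.73 in the sid2 line, 6.35 and 3.79 in the PBL19C3A line, and 1.36 and 1.84 in WT. It was highest in sid2 library 1, as LOX3 and LOX4 were. AOC4 ranged only between 9.34 and 12.3 FPKM over the 8 libraries.

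OPR3 (AT2G06050) on chromosome 2 encodes the peroxisomal reductase of OPDA, whose loss makes plants male sterile. Its level was 26.6 and 30.3 FPKM in the eds1 line, 32.3 and 18.4 in the sid2 line, 22.9 and 17.4 in the PBL19C3A line, and 20.2 and 17.0 in WT. The eds1 line lay above WT in both libraries, and the other lines overlapped WT. The largest of the 6 differences was that of the eds1 line from WT, at 0.56 ± 0.27 (edgeR, adjusted p = 1), and none was called.

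JAR1 (AT2G46370, chromosome 2) encodes the enzyme that joins jasmonate to isoleucine. It varied least in fold among the members, with 16.3 and 15.7 FPKM in the eds1 line, 16.6 and 18.9 in the sid2 line, 20.0 and 21.9 in the PBL19C3A line, and 16.8 and 15.9 in WT. Both libraries of the PBL19C3A line lay above the other 6. WT overlapped both the eds1 line and the sid2 line, and the sid2 line lay above the eds1 line without overlap. JAR1 fell by 0.38 ± 0.11 on the log2 scale in the eds1 line against the PBL19C3A line (edgeR, adjusted p = 0.0436). The PBL19C3A line differed from WT by 0.31 ± 0.11 (edgeR, adjusted p = 0.0695), a difference that passed with limma on log2(FPKM + 1) and log2(FPKM + 0.1) (adjusted p = 0.0484 and 0.0482), and the other 4 differences lay between -0.26 and 0.05 with none called. The single call was lost in 7 of 16 alternatives (edgeR, adjusted p up to 0.188), which were the fit of only these genotypes and those without either library of the eds1 line, the PBL19C3A line or WT.

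CYP94B3 (AT3G48520, chromosome 3) encodes the cytochrome P450 that hydroxylates jasmonoyl-isoleucine. It had 535 and 58 counts in the libraries of the sid2 line, against 23 and 8 in WT, or 5.89 and 0.685 FPKM against 0.279 and 0.0957. Both sid2 libraries lay above both WT libraries, and library 1 held 8.59 times the level of library 2. The fitted difference was 4.06 ± 1.15 on the log2 scale and did not pass the test (edgeR, adjusted p = 0.0709). It was 1.80 without sid2 library 1 and 4.89 without sid2 library 2 (edgeR, adjusted p = 0.28 and 0.00769). It also passed with a replicate block (3.75, edgeR, adjusted p = 0.0134) and with DESeq2 (4.05, adjusted p = 0.000206). The tables of the eds1 and PBL19C3A lines do not list the gene, and no value was set for it there. A table held no gene under 1 CPM (counts relative to library size) in more than 2 of its 4 libraries. CYP94B3 had 0.495 and 0.172 CPM in WT, so it could be listed only where both libraries of a line reached 1 CPM. The lack of overlap between the sid2 line and WT, and the direction of the difference, were therefore fixed by the listing.

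CYP94C1 (AT2G27690, chromosome 2) encodes the enzyme that oxidises the hydroxylated hormone further, to its carboxylated form. It stood at 2.25 and 4.90 FPKM in the eds1 line, 10.2 and 1.82 in the sid2 line, 7.64 and 2.48 in the PBL19C3A line, and 1.70 and 2.62 in WT. Each transgenic line overlapped WT, and library 1 was the higher one in the sid2 and PBL19C3A lines but the lower one in the eds1 line and WT. Against WT the differences were 0.69 ± 0.83 for the eds1 line, 1.41 ± 0.84 for the sid2 line and 1.18 ± 0.84 for the PBL19C3A line, with none called (edgeR, adjusted p = 1, 0.295 and 0.31). In the sid2 line the difference was -0.30 without library 1 and 2.17 without library 2.

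Several members differed widely between the 2 libraries of one genotype. Over the 17327 genes in every table, the median absolute gap between the 2 libraries was 0.18 on the log2 CPM scale in each genotype. In the sid2 line the gap, library 1 minus library 2, was 2.51 for LOX4, 2.47 for CYP94C1 and 1.58 for LOX3. Gaps larger than these occurred in 0.167%, 0.179% and 0.791% of genes. Library 1 of the sid2 line was higher by over 1 log2 unit for 3 of 9 members, beside 2.22% of all genes, and library 2 for 0 of 9. LOX4 had in the eds1 line a gap of 1.85 (larger in 0.733% of genes) and CYP94C1 one of -1.17, and in the PBL19C3A line CYP94C1 had a gap of 1.59. No member passed 1 log2 unit in WT, where LOX2 (0.86) and AOC2 (0.84) had the widest gaps. AOS stayed within 0.18 in every genotype and JAR1 within 0.20. What set these libraries apart was not tested, and the labels give no time of harvest or batch.

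**Figure D3:**
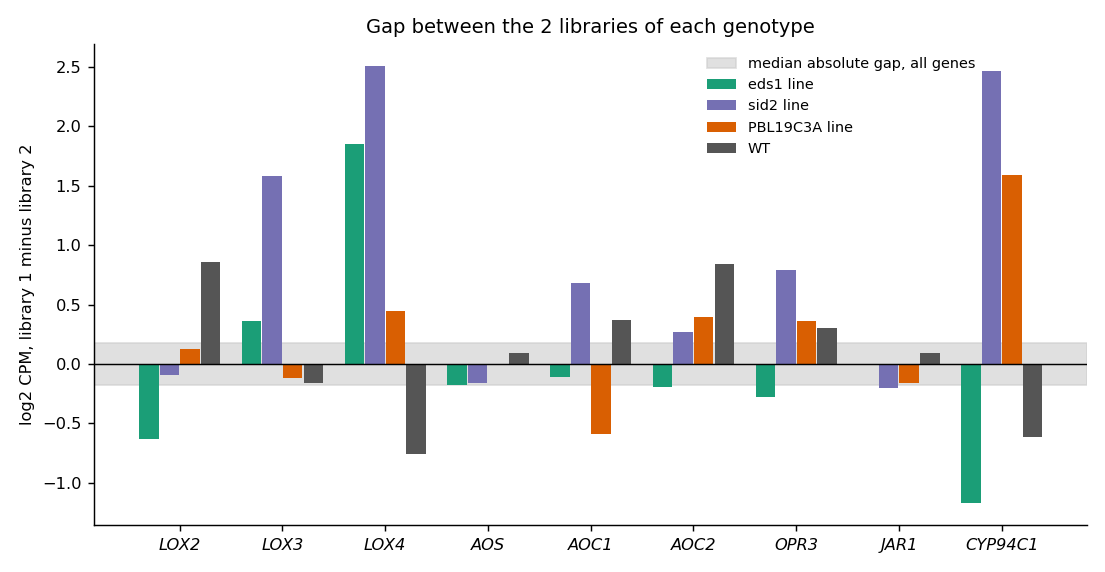
Difference between library 1 and library 2 of each genotype in log2 CPM for the 9 members listed for every genotype, with bars in the order eds1 line, sid2 line, PBL19C3A line and WT, and a grey band at the median absolute gap of all genes (0.18). The tallest bars are those of LOX4 (2.51) and CYP94C1 (2.47) in the sid2 line, whereas those of AOS stay inside or at the edge of the band.

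Of 13 other measured genes of synthesis, 4 rose and 0 fell in the PBL19C3A line against WT, beside 21.4% of all genes higher and 14.9% lower. The count was 4 and 0 in the sid2 line, which shares the WT libraries (12.1% of all genes higher, 4.05% lower), and 0 and 0 in the eds1 line (0.16% called). In the PBL19C3A line the share called in this list was below the 36.2% of all genes called in either direction. The ligase gene OPCL1 (AT1G20510), which activates the precursor with coenzyme A, rose by 1.43 ± 0.39 in the sid2 line and by 1.47 ± 0.39 in the PBL19C3A line against WT (edgeR, adjusted p = 0.0469 and 0.0229). The thiolase gene KAT2 (AT2G33150) stood at 126 and 114 FPKM in the eds1 line, 232 and 314 in the sid2 line, 289 and 280 in the PBL19C3A line, and 120 and 118 in WT. KAT2 thus rose by 1.14 ± 0.15 in the sid2 line and by 1.22 ± 0.15 in the PBL19C3A line against WT (edgeR, adjusted p = 0.00314 and 0.00112), with no overlap. The acyl-CoA oxidase gene ACX1 (AT4G16760) rose by 0.83 ± 0.12 in the sid2 line and by 0.96 ± 0.12 in the PBL19C3A line (edgeR, adjusted p = 0.00473 and 0.00126). Of the same list, 0 rose and 3 fell in the eds1 line against the PBL19C3A line (28.2% of all genes called), namely KAT2, ACX1 and the multifunctional protein gene MFP2 (AT3G06860), at -1.24 ± 0.15, -0.94 ± 0.12 and -0.73 ± 0.16 in edgeR. KAT2 and ACX1 also fell in the eds1 line against the sid2 line (9.4% called), and 0 of 13 were called in the sid2 line against the PBL19C3A line (2.63%). These beta-oxidation enzymes also break down other fatty acids. The list's count in the sid2 line against WT was 2 without sid2 library 1 or either WT library. For the eds1 line against the sid2 line it was 1 without eds1 library 2.

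The oxygenase genes JOX3 and JOX4 of jasmonate turnover changed by more than any member that was called. Of 7 measured turnover genes outside the members, 5 rose and 2 fell in the PBL19C3A line against WT (background 36.2% called), 5 rose and 0 fell in the sid2 line (16.2%), and of 6 measured in the eds1 line 0 were called (0.16%). JOX2 (AT5G05600), JOX3 (AT3G55970) and JOX4 (AT2G38240) encode oxygenases that hydroxylate jasmonate before it is conjugated. JOX3 stood at 1.95 and 1.01 FPKM in the eds1 line, 28.9 and 37.1 in the sid2 line, 6.98 and 4.09 in the PBL19C3A line, and 0.783 and 0.808 in WT. The sid2 line was highest, the PBL19C3A line next, and no genotypes overlapped. JOX3 rose by 5.30 ± 0.39 in the sid2 line and by 2.74 ± 0.36 in the PBL19C3A line against WT, and by 2.56 ± 0.33 in the sid2 line against the PBL19C3A line (edgeR, adjusted p = 0.000355, 0.00153 and 0.0156). That last call, the 1 of this list between these lines, was lost without any one of their 4 libraries. JOX4 rose by 6.10 ± 0.74 in the sid2 line and 4.21 ± 0.73 in the PBL19C3A line against WT (edgeR, adjusted p = 0.00351 and 0.00578), and JOX2 by 2.39 ± 0.31 in the sid2 line (edgeR, adjusted p = 0.00312). JOX4 had 15 and 18 counts in WT, or 0.323 and 0.387 CPM, and was not listed for the eds1 line. It could be listed only where both libraries of a line reached 1 CPM, so the listing partly fixed its rise. CYP94B1 (AT5G63450), which hydroxylates the hormone as CYP94B3 does, had 109 and 215 counts in the eds1 line, 23 and 57 in the sid2 line, 5 and 15 in the PBL19C3A line, and 74 and 96 in WT. In the PBL19C3A line it had 0.108 and 0.401 CPM, so it could be listed there only because both WT libraries reached 1 CPM. The listing thus partly fixed the direction of its difference between that line and WT. CYP94B1 was lowest in the PBL19C3A line, falling by 2.92 ± 0.74 in the PBL19C3A line against WT (edgeR, adjusted p = 0.0199), and it rose by 3.80 ± 0.74 in the eds1 line against the PBL19C3A line (edgeR, adjusted p = 0.00931). In that comparison 2 of 6 rose and 2 fell (background 28.2% called), and in the eds1 line against the sid2 line 0 rose and 3 fell (9.4%), led by JOX3 (-4.46 ± 0.37, edgeR, adjusted p = 0.000619). The count of 7 called in the PBL19C3A line was 4 without PBL19C3A library 1 or WT library 2, and that of 3 in the eds1 line against the sid2 line stayed at 2 or 3 in every such fit.

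**Figure D4:**
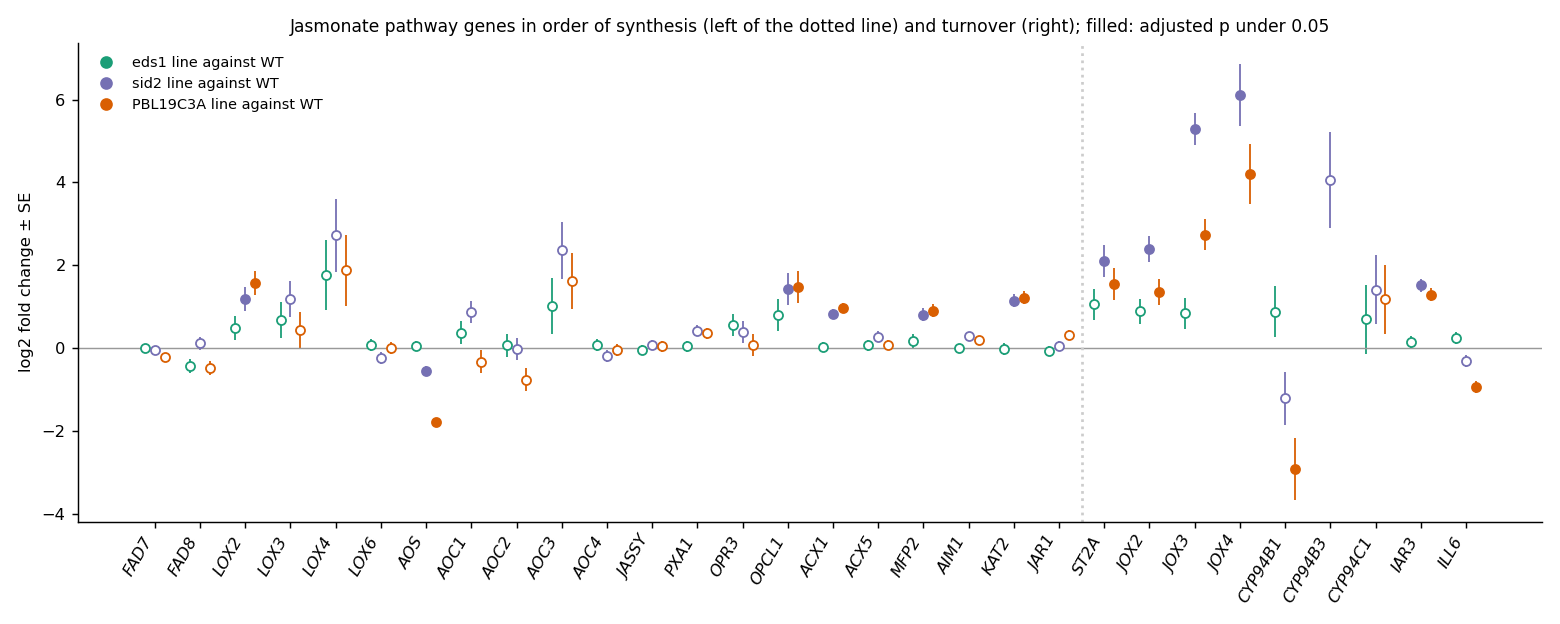
Log2 fold change ± SE against WT for genes in the order of jasmonate synthesis (left of the dotted line) and turnover (right) in the eds1 line, the sid2 line and the PBL19C3A line, with filled points for an adjusted p under 0.05 in edgeR. The filled points of JOX3 and JOX4 lie between 2.74 and 6.10, above any member called, and those of AOS and, in the PBL19C3A line, CYP94B1 and ILL6 lie below 0. JOX4 is not listed for the eds1 line and lies under 1 CPM in WT. CYP94B1 lies under 1 CPM in the PBL19C3A line.

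Of 15 genes of perception and repression, 3 rose and 2 fell in the PBL19C3A line against WT (background 36.2% called), 2 rose and 1 fell in the sid2 line (16.2%), and 0 were called in the eds1 line (0.16%). These shares lay near the background of each comparison. JAZ1 (AT1G19180), an early target and repressor, rose by 2.70 ± 0.65 in the sid2 line and by 2.33 ± 0.64 in the PBL19C3A line (edgeR, adjusted p = 0.0311 and 0.0262). MYC4 (AT4G17880), a transcription factor of the pathway, fell by 0.59 ± 0.16 in the sid2 line and by 0.61 ± 0.16 in the PBL19C3A line (edgeR, adjusted p = 0.0448 and 0.021). For the eds1 line against the PBL19C3A line 4 rose and 1 fell (background 28.2% called), and MYC2 (AT1G32640), the central transcription factor, rose by 1.58 ± 0.45 (edgeR, adjusted p = 0.0368). The counts of this list were the least stable: the 5 calls in the PBL19C3A line against WT became 0 without PBL19C3A library 1 or WT library 1, 1 without WT library 2 and 2 without PBL19C3A library 2. The 3 in the sid2 line became 0 without sid2 library 1 or either WT library and 1 without either PBL19C3A library. The 5 in the eds1 line against the PBL19C3A line became 1 or 2 without either PBL19C3A library, 2 without eds1 library 1 and 3 without eds1 library 2.

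Of 9 measured response genes, 6 rose and 0 fell in the PBL19C3A line against WT (21.4% of all genes higher, 14.9% lower), 6 rose and 0 fell in the sid2 line (12.1% higher, 4.05% lower), and 0 of 6 were called in the eds1 line (0.16% called). The aminotransferase gene TAT3 (AT2G24850) rose by 4.50 ± 0.58 in the sid2 line and by 6.41 ± 0.61 in the PBL19C3A line (edgeR, adjusted p = 0.00437 and 0.000684). The defensin gene PDF1.2A (AT5G44420), a marker of the joint response to jasmonate and ethylene, had 726 and 155 FPKM in the libraries of the sid2 line, 7.76 and 5.78 in the PBL19C3A line, and 0.486 and 0.364 in WT. Library 1 was again the higher one in the sid2 line. TAT3, PDF1.2A and ERF1 (AT3G23240), which also rose in both lines, had 0.107 to 1.05 CPM in the WT libraries and were not listed for the eds1 line. A gene that low in WT was listed only where libraries of the other line reached 1 CPM, so the listing partly fixed these rises. VSP2 (AT5G24770), a vegetative storage protein gene of the MYC branch, had 39.3 and 47.0 FPKM in the eds1 line, 30.8 and 7.68 in the sid2 line, 4.20 and 5.64 in the PBL19C3A line, and 26.8 and 9.09 in WT. It was lowest in the PBL19C3A line, as AOS was, and rose by 3.14 ± 0.72 in the eds1 line against the PBL19C3A line (edgeR, adjusted p = 0.0176), a call lost without PBL19C3A library 2 or eds1 library 2. The count of 6 in the PBL19C3A line was 3 without PBL19C3A library 1 or WT library 1.

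The genes outside the members most like AOS, LOX2 and OPR3 over the 8 libraries were sought among 9511 genes with a mean of at least 10 FPKM, by Pearson's r of log2 CPM. For AOS these were MLP28 (AT1G70830; r = 0.995, Spearman's rho = 0.976), PDH-E1 ALPHA (AT1G01090; r = 0.991, rho = 0.905) and CAC2 (AT5G35360; r = 0.986, rho = 0.762). For LOX2 they were AT5G62200 (r = 0.974, rho = 0.929), AT1G09910 (r = 0.973, rho = 0.952) and MEE34 (AT3G11270; r = 0.970, rho = 0.929), and for OPR3 TBL37 (AT2G34070; r = 0.926, rho = 0.905), RAD23B (AT1G79650; r = 0.911, rho = 0.857) and AT4G11320 (r = 0.909, rho = 0.881). The 8 points are 4 genotypes with 2 libraries each, so they share genotype as well as library, and the coefficients are the highest of all candidates by choice.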

How the data were processed

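RNA of 8 rosette libraries was measured as whole-number read counts per gene, deposited by the authors in 3 tables that each pair WT with 1 transgenic line. The authors also deposited FPKM values per gene and library, per the file headers. The submitters' processing notes name HISAT2 2.0.4 and TAIR10. The counting tool and strandedness are not given in the sources used here. Of 284202 values present in more than 1 file, 0 differed, and 0 measurement columns were unmatched to a sample. The tables listed 17534, 17991 and 18048 genes for the eds1, sid2 and PBL19C3A lines, of which 17327 stood in all 3.

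Testing of the counts used edgeR 4.0.16 under R 4.3.3 (quasi-likelihood, TMM scaling, filterByExpr, which removed no gene, and Benjamini-Hochberg adjustment over all genes of a comparison), with genotype as the only term. A gene was fitted with all libraries that list it. The biological coefficient of variation was 18.1%. Standard errors were taken as the absolute log2 fold change over the root of F. Levels are the deposited FPKM. The test was tried on simulated data first. Alternatives used DESeq2 1.42.0, limma 3.58.1 on log2(FPKM + 1) and log2(FPKM + 0.1), RLE scaling, no filter, a mean of at least 5 CPM, only the genotypes compared, a replicate block, and each library left out. The alternative with no filter could not differ from the main fit.

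Text names all 10 members, the genotype genes PBL19, EDS1 and ICS1, and the flower markers SEP3 and PI. AOC3, AOC4 and the 3 genes most like AOS, LOX2 and OPR3 are named too. From each other jasmonate list it names at most 3 called genes with the largest change in a comparison. PDF1.2A, VSP2 and MYC2 fall under this rule in at least 1 comparison. The members and lists were chosen with earlier results of these data known. Upstream windows, gene order and coding identity came from RefSeq TAIR10.1 with Biopython 1.88. The deposited tables hold no coordinates.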

Additional observations from a re-analysis of the deposited data

How the results depend on the processing

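Of the log2 fold changes of members, 831 values under an alternative kept the side of the threshold of the reported one, 25 passed it in addition, 23 lost it, and 0 called changes turned sign. The number of members called moved by over 1.5 times in these settings. In the sid2 line against WT (2 called) it was 6 with DESeq2, 1 with only the libraries of these genotypes, and 0 to 5 when leaving out each library in turn. In the sid2 line against the PBL19C3A line (1 called) it was 2 with DESeq2 and 0 to 1 over the left-out libraries. In the eds1 line against the PBL19C3A line (3 called) it was 5 with DESeq2 and 1 to 3, and in the eds1 line against the sid2 line (1 called) it was 0 with only these genotypes and 0 to 2. The cause was not tested. In the PBL19C3A line and the eds1 line against WT the counts stayed at 2 to 3 and at 0. Over all genes, the count in the eds1 line against WT was 28 in the main analysis, 88 with DESeq2 and 17 with only these genotypes. In the sid2 line against WT 2906 became 3856 with DESeq2 and 2166 with only these genotypes. In the eds1 line against the PBL19C3A line 4894 became 5712 and 3976, and in the PBL19C3A line against WT 6536 became 7076 and 5996. In the sid2 line against the PBL19C3A line 469 became 1349 with DESeq2 and 24 to 390 with a library left out, and in the eds1 line against the sid2 line 1636 became 2575 with DESeq2, 848 with only these genotypes and 617 to 1398. For the remaining comparisons, the count with a library left out was 1187 to 2843 in the sid2 line against WT (2906), 2479 to 4543 in the eds1 line against the PBL19C3A line (4894), and 3729 to 6287 in the PBL19C3A line against WT (6536).

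With a replicate block on the library number, the members called against WT were 0 for the eds1 line, 3 for the sid2 line and 3 for the PBL19C3A line. Set against the PBL19C3A line they were 4 for the eds1 line and 1 for the sid2 line, and 1 for the eds1 line set against the sid2 line. Over all genes the block raised the calls in every comparison. Against WT they were 31 for the eds1 line (28 without it), 3950 for the sid2 line (2906) and 7614 for the PBL19C3A line (6536). Set against the PBL19C3A line they were 6020 for the eds1 line (4894) and 924 for the sid2 line (469). For the eds1 line against the sid2 line they were 2471 (1636). Deviations of same-numbered libraries correlated at 0.13 to 0.338 across genes, but each comparison holds only 2 pairs and the labels tie the numbers to nothing shared. RLE in place of TMM scaling moved no median by as much as 0.1. CYP94B3 rested on 8 to 535 counts per library, and its log2 fold change had a standard error of 1.15.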

Other observations

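Of the members, LOX2, AOC1, AOC2 and CYP94B3 lie on chromosome 3, which also holds EDS1. CYP94B3 is 55 protein-coding genes after EDS1 and LOX2 302 before it, while AOC1 and AOC2 lie farther away. In the eds1 line against WT, 28 genes were called by edgeR, of which 21 lie on chromosome 3 and 13 within 302 genes of EDS1 on either side, where 355 genes were tested. Of these 13, 11 were lower in the eds1 line. LOX2, whose distance from EDS1 was used to set that window, was not called in this comparison, with 61.2 ± 17.1 FPKM in the eds1 line and 42.5 ± 17.1 in WT (SD, n = 2 libraries). The share of all tested genes that lie on chromosome 3 was not counted.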
